A study of Caenorhabditis elegans with 2 samples.

Results

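UNC-62 binding regions that lay at genes for non-coding RNAs are described here. They were taken from the list of regions called on both replicates together. A nuclear region was included where its summit lay inside a tRNA, snRNA, snoRNA, miRNA or ncRNA gene or within 500 bp of its ends. The summit is the single position that the authors gave for a region. Regions were most often 416 bp wide, and at the thresholded regions described here the summit was the middle of the region. Of the 4828 nuclear regions in that list, 649 met the rule, which is 13.4%. By biotype, 82 regions lay at tRNA genes, 23 at snRNA genes, 66 at snoRNA genes, 28 at miRNA genes and 555 at genes of the class ncRNA. A region could count under more than 1 biotype, and 194 regions lay at a gene of the 4 small classes. Of the 82 regions at tRNA genes, 61 also lay at an ncRNA gene, and with each region assigned to its nearest gene alone, 31 went to tRNA genes, 16 to snRNA, 55 to snoRNA, 20 to miRNA and 536 to ncRNA genes. Regions at equal distance from genes of several classes could still count more than once. Some neighbouring regions shared bases, so that the 649 regions made up 598 separate loci.

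UNC-62 is a homeodomain transcription factor, and ChIP-seq, in which chromatin bound by a factor is immunoprecipitated and sequenced, was used to map it in whole larvae of the nematode Caenorhabditis elegans at the L4 stage. There was 1 group with 2 biological replicates, and so no comparison between conditions. All worms were of strain OP600, with the genotype unc119(ed3) and the transgene wgIs600, which holds unc-62 joined to TY1, EGFP and FLAG sequences and an unc119 gene. The sexes were pooled, and chromatin was sheared by sonication. The antibody is labelled as directed at unc-62, which does not tell whether it saw the protein or the tag. The strain is 1 transgenic line, so the values describe the tagged factor in that line and in all tissues together. The control library was not analysed here, and the depth is unknown because the lists hold no read counts.

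UNC-62 belongs to the Meis and Homothorax family of TALE homeodomain proteins, which act with Pbx-class partners such as CEH-20 and recognise DNA with the core TGACAG. The factor is known in worms for roles in embryonic patterning, postembryonic neuroblast migration, vitellogenin gene expression and lifespan. The RNA genes considered here use different transcription machinery. tRNA genes are transcribed by RNA polymerase III from A and B boxes inside the gene, miRNA genes mostly by RNA polymerase II, and snRNA genes from a proximal sequence element that lies shortly before the gene. The sls genes of the worm encode spliced leader RNAs, which donate a short leader to the 5′ ends of many mRNAs by trans-splicing, and SL2 is used mainly for downstream genes of operons.

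The sequences at which the leading regions lay are shown first, read from the WBcel235 assembly (build ce11) on the strand given. For 3 of the SL2 RNA genes with a region, the 80 bases before the gene and the first 22 bases of the gene are shown, because these regions had their summits just before the gene. Capitals mark the runs of at least 8 bases found at the same position in all 3 genes, the later of which runs into the 22-base leader.
sls-2.1 (chrII:5844785-5844886, plus strand): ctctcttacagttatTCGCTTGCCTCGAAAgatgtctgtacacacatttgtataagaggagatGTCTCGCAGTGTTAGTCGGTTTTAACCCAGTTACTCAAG
sls-2.2 (chrII:5543518-5543619, plus strand): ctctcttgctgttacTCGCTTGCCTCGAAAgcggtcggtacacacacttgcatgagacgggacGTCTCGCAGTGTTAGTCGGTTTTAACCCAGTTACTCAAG
sls-2.3 (chrII:5544252-5544353, minus strand): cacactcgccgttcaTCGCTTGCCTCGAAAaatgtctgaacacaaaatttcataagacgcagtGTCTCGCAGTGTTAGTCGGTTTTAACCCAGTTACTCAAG

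The 121 bases centred on the summit are shown for the strongest region of all, which lay beside the snoRNA gene T21B4.20 and the miRNA gene mir-77, and for the strongest region whose summit was inside an RNA gene, T05B11.10. Capitals mark the Meis-class core TGACAG, which in both windows stood on the minus strand and is therefore read as CTGTCA. The match began 6 bp after the first summit and 3 bp before the other.
T21B4.20 (chrII:12518972-12519092, plus strand): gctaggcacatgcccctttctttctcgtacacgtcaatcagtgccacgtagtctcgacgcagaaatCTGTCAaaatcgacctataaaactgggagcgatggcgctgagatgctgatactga
T05B11.10 (chrV:7744215-7744335, plus strand): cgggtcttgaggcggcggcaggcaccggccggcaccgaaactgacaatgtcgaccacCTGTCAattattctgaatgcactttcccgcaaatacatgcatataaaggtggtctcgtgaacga
The tRNA gene R11.t1, for tRNA-Tyr, lay 7 bp from the summit of a strong region, and the gene is shown with its B box word GTTCGANTC in capitals.
R11.t1 (chrX:16209769-16209852, minus strand): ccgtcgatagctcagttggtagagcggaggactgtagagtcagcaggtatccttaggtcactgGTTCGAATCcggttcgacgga

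Of the 28 miRNA genes with a region, 26 could be given their mature sequences here, and 2 groups of them shared a seed. They are shown because several members of each group had a region, and each group had at least 1 in the thresholded list. These members are not separate loci throughout. mir-54, mir-55 and mir-56 lie in 1 cluster, so that 1 region can count for several of them. The regions of rank 35 at mir-239.2 and rank 581 at mir-239.1 matched the same replicate regions. Capitals mark the seed, bases 2 to 8 of the mature miRNA, and the sequences are those of the RefSeq annotation of WBcel235. The seed of mir-52, mir-54, mir-55 and mir-56 was ACCCGUA, and that of mir-238, mir-239.1 and mir-239.2 was UUGUACU.
mir-52, 5′ arm: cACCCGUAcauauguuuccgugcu
mir-54, 3′ arm: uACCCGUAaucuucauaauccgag
mir-55, 3′ arm: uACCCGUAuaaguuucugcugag
mir-56, 3′ arm: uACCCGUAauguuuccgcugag
mir-238, 3′ arm: uUUGUACUccgaugccauucaga
mir-239.1, 5′ arm: uUUGUACUacacauagguacugg
mir-239.2, 5′ arm: uUUGUACUacacaaaaguacug
The mature products of mir-77, the miRNA gene beside the strongest region, had seeds of their own.
mir-77, 5′ arm: gAUGGUUGugcucugaggaaau
mir-77, 3′ arm: uUCAUCAGgccauagcugucca

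Regions at RNA genes were more often in the authors' short thresholded list than nuclear regions in general. That list held the 176 nuclear regions of highest pooled signal, which is 3.65% of all nuclear regions, and 47 of the 649 regions at RNA genes were in it, which is 7.24% (95% Wilson interval 5.49 to 9.50). Of the 4179 nuclear regions outside the RNA gene windows, 129 were in it, which is 3.09%. The share was 14.3% at miRNA genes (4 of 28), 13.0% at snRNA genes (3 of 23), 10.6% at snoRNA genes (7 of 66) and 7.03% at ncRNA genes (39 of 555). At tRNA genes it was 3.66% (3 of 82), next to the share of all nuclear regions. Outside protein-coding promoters, taken from 1000 bp before to 500 bp after the start of any protein-coding transcript, 3.68% of all nuclear regions were thresholded. There the snoRNA share was 2.70% and the snRNA share 0 of 8, both below that value, while the miRNA share was 15.8% and the ncRNA share 6.82%. Within 100 bp of a miRNA gene it was 0 of 8. With the 4828 highest nuclear regions of a single replicate in place of the pooled list, and its 176 highest in place of the thresholded list, the share over all biotypes was 6.57% in replicate 1 and 6.56% in replicate 2. By biotype it was 21.1 and 21.4% at snRNA genes, 15.0 and 10.7% at miRNA genes, 6.72 and 6.52% at ncRNA genes, and 2.82 and 4.05% at tRNA genes. At snoRNA genes it was 5.77 and 8.47%, the former nearer to the share of all nuclear regions than the pooled value was. The Wilson intervals of the small classes were wide, from 5.70 to 31.5% for miRNA genes and from 4.54 to 32.1% for snRNA genes. These intervals cover the counting of regions only, and regions are not replicates of the experiment.

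The deposited q-value largely followed the pooled signal that ranks the list. Its shares are therefore a wider cut of nearly the same ranking and not separate support. A q of 0.05 or less was found at 79 of the 649 regions, which is 12.2%, against 6.86% of all nuclear regions and 6.03% of those outside the windows. It was 21.7% at snRNA genes (5 of 23), 14.3% at miRNA genes (4 of 28) and 13.6% at snoRNA genes (9 of 66). At ncRNA genes it was 12.1% (67 of 555) and at tRNA genes 11.0% (9 of 82). Outside protein-coding promoters the snoRNA share was 2.70% of 37 regions, below the 6.35% of all nuclear regions there. The other classes stayed above that value, from 10.4% at ncRNA genes to 25.0% of 8 regions at snRNA genes. Within 100 bp of a miRNA gene the share was 0 of 8. The q-values were heavily tied, and 255 nuclear regions of the pooled list shared its lowest value of 0.0381.

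The signal of the members was slightly above that of the list as a whole, on the authors' scale, which was not defined in the labels or headers. The median was 10.02 over the 649 regions, 9.18 over all nuclear regions and 9.07 outside the windows. By biotype it was 11.5 at snRNA genes, 11.0 at both snoRNA and miRNA genes, 10.3 at tRNA genes and 9.99 at ncRNA genes. The lowest signals of the biotypes, from 7.60 to 8.14, were close to the lowest of the list, 7.59, while the highest ranged from 42.1 at a tRNA gene to 103 at a snoRNA and a miRNA gene. Each biotype thus ran from below the middle of the list to well above it. The weakest region at a miRNA gene ranked 3777 of 4828, so that class did not reach the end of the list.

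**Figure D1:**
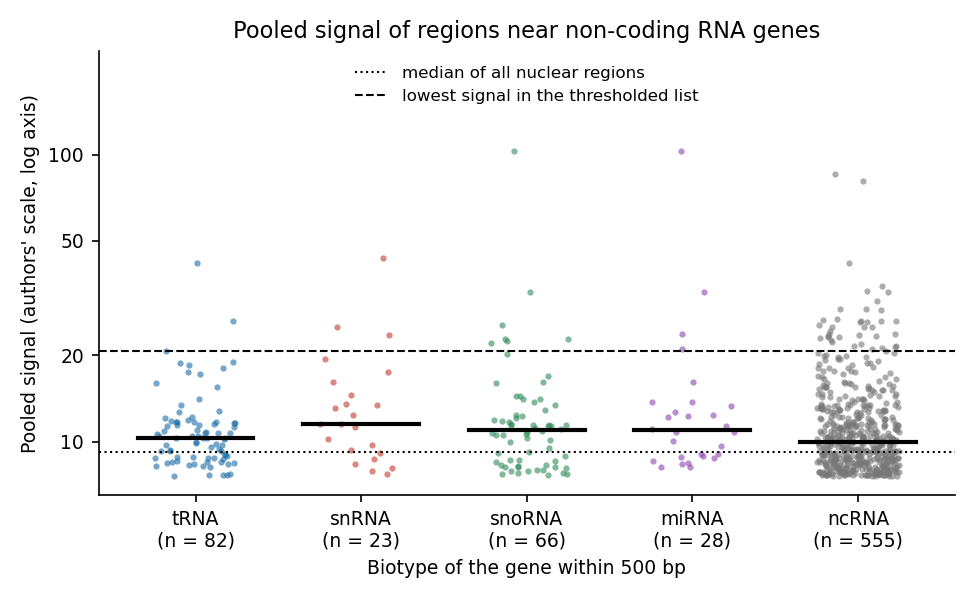
Pooled signal of each region at an RNA gene (vertical, the authors' scale on a log axis) by biotype, with 1 point per region, a black bar at the biotype's median, a dotted line at the median of all nuclear regions (9.18) and a dashed line at the lowest signal in the thresholded list (20.6). The medians of the 5 biotypes lie between 9.99 and 11.5, above the dotted line, and the regions above the dashed line number 3 for tRNA, 3 for snRNA, 7 for snoRNA, 4 for miRNA and 39 for ncRNA genes.

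Members took a larger share of the regions than of the genome. Windows of 500 bp around the RNA genes covered 7.51% of nuclear length and held 13.4% of the regions. For tRNA genes the window held 1.70% of the regions in 0.571% of the length, for snRNA genes 0.476% in 0.135%, for snoRNA genes 1.37% in 0.375%, for miRNA genes 0.580% in 0.251% and for ncRNA genes 11.5% in 6.72%. The picture was similar outside protein-coding promoters, where the windows covered 7.32% of the length and held 13.3% of the regions. Counted by gene, a region lay at 66 of 346 snoRNA genes (19.1%), 92 of 612 tRNA genes (15.0%), 17 of 129 snRNA genes (13.2%), 28 of 261 miRNA genes (10.7%) and 689 of 7764 ncRNA genes (8.87%).

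The classes differed in how their share changed down the list. At ncRNA genes it fell from 22.2% of the 176 highest regions to 17.6% of the next 324, 15.0% of the next 500, 13.1% of the next 1000 and 8.95% of the remaining 2828. At snRNA genes it was 1.70% (3 of 176), then 4 of 324, 4 of 500 and 5 of 1000 regions, and 0.248% of the lowest band. snoRNA genes had 3.98% of the highest band and 0.849% of the lowest, with 1.23% in the second and 2.60% in the third. tRNA genes lay at 1.70% of the highest band, 2.80% of the fourth band and 1.13% of the lowest, so that their share did not rise toward the top. miRNA genes had 2.27% of the highest band, 0.309% of the second, then 7 of 500 and 5 of 1000 regions, and 0.389% of the lowest. The small classes rest on few regions in the upper bands, at most 7 of the 176 highest for any of them.

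**Figure D2:**
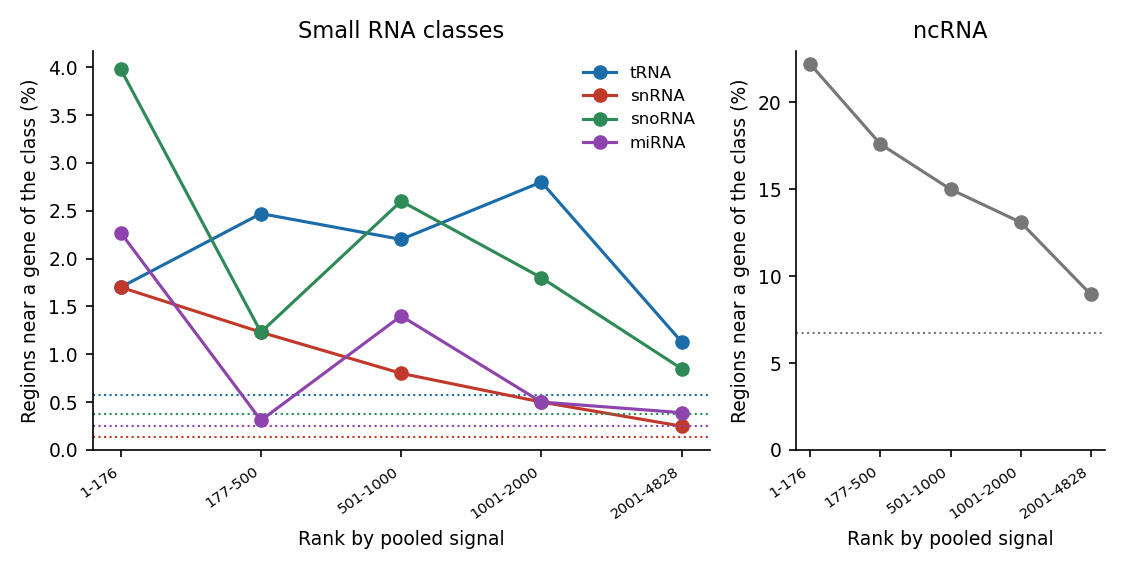
Share of regions at genes of each class (vertical, percent, starting at 0) in 5 bands of rank by pooled signal (horizontal), for the small classes on the left and ncRNA genes on the right, with dotted lines at the share of nuclear length in the windows of each class. The ncRNA share fell from 22.2 to 8.95% and the snRNA share from 1.70 to 0.248%, while tRNA genes had their largest share, 2.80%, in the fourth band.

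Regions at RNA genes were also found more often in both replicates taken alone. A region counted as found when any 1 of its bases fell in a region listed for the replicate. This was so in both replicates for 435 of the 649 regions, which is 67.0%, against 57.9% of all nuclear regions and 56.4% of those outside the windows. Among regions with a q of 0.05 or less there was no such excess, with 96.2% of 79 members and 96.7% of all nuclear regions. The share was 75.8% at snoRNA genes, 70.7% at tRNA genes, 69.6% at snRNA genes, 67.0% at ncRNA genes and 60.7% at miRNA genes. With replicate summits required within 100 bp of the pooled summit, the tRNA share was 34.1%, next to the 34.2% of all nuclear regions. The other classes then ranged from 38.0% at ncRNA genes to 47.8% at snRNA genes. Among the 8 regions within 100 bp of a miRNA gene, 37.5% were found in both replicates, while the other classes had 70.8 to 83.3% at that distance. A stricter count asked for a match to the 176 highest nuclear regions in each replicate, and 18 members met it, which is 2.77% against 1.78% of all nuclear regions. The 2 such regions at tRNA genes lay side by side and matched the same region in each replicate, and so did the 2 at snRNA genes, so each pair is 1 locus.

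The replicates agreed loosely on the order of these regions. Across the 435 regions found in both, Spearman's rho between the log2 signals of replicate 1 and replicate 2 was 0.30, against 0.19 across the 2794 nuclear regions found in both. By biotype it was 0.54 over 16 regions at snRNA genes, 0.48 over 50 at snoRNA genes, 0.31 over 17 at miRNA genes, 0.31 over 372 at ncRNA genes and 0.27 over 58 at tRNA genes. These values describe regions of the same pair of libraries, which also gave the pooled signal by which the list was made. The replicate lists are unthresholded and hold 18113 and 20452 nuclear regions, so that a match alone says little about strength. Among the 47 thresholded regions, 46 had a match in replicate 1 and 47 in replicate 2, and 14 (29.8%) were among the 176 highest of both replicates, against 54 of the 129 thresholded regions outside the windows (41.9%).

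**Figure D3:**
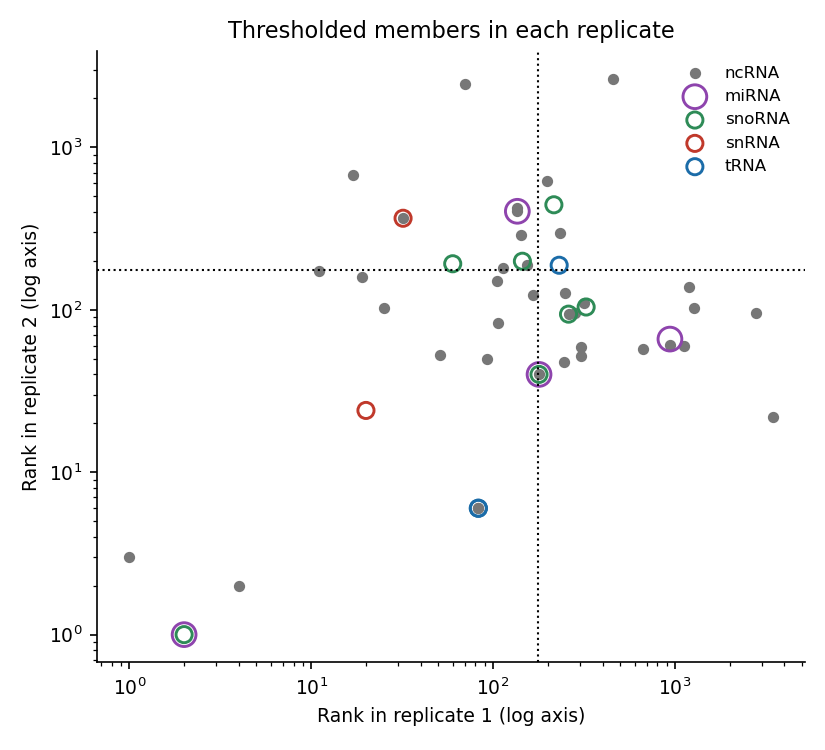
Rank of the best matching nuclear region in replicate 1 (horizontal) and replicate 2 (vertical), both on log axes, for the thresholded regions at RNA genes, with filled grey points for ncRNA genes and open rings for the small classes and dotted lines at rank 176. A region at genes of several classes carries several marks, and the region at sls-2.4, which had no match in replicate 1, is not drawn. The 3 regions at the lower left are those at T21B4.20, W08E3.5 and T05B11.10, ranked 1 to 4 in both replicates.

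Several features of the DNA and its surroundings moved with membership, and their part in the results was not tested. The median GC content of the 201 bases around the summit was 40.3% for members and 36.8% for all nuclear regions, and ranged from 40.3 to 43.3% across the biotypes. On the X chromosome lay 28.0% of members and 21.5% of all nuclear regions. By class, 41 of the 82 regions at tRNA genes and 45.1% of tRNA genes were on X, as were 32.1% of the regions at miRNA genes and 28.4% of those genes, and 29.0% of the regions at ncRNA genes and 32.5% of those genes. For snoRNA genes it was 7.58% of the regions and 9.54% of the genes, and for snRNA genes 8.70% of the regions and 2.33% of the genes. A protein-coding promoter held the summit of 291 members, which is 44.8%, close to the 44.2% of all nuclear regions. The share was 65.2% at snRNA genes (15 of 23), 44.5% at ncRNA genes, 43.9% at snoRNA genes, 32.9% at tRNA genes and 32.1% at miRNA genes. Where a summit lay in both windows, the RNA gene and the promoter cannot be told apart as the feature it belongs to.

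Over all members, the share of regions with the Meis-class core was close to that of the whole list. Within 100 bp of the summit, counting both strands, TGACAG occurred in 56 of the 649 members, which is 8.63%, against 9.61% of all nuclear regions. The share was 10.7% at miRNA genes (3 of 28), 10.6% at snoRNA genes (7 of 66), 9.76% at tRNA genes (8 of 82), 7.57% at ncRNA genes (42 of 555) and 4.35% at snRNA genes (1 of 23). Without replicate 2, that is with replicate 1's own strongest regions instead of the pool's, the order turned, with 9.43% of members and 9.03% of all regions. The share at snoRNA genes was then 17.3% and at miRNA genes 20% of 20 regions. Without replicate 1 it was 10.2% at snoRNA genes, 7.14% at miRNA genes and 0 of 14 at snRNA genes. Among the thresholded regions it was found in 9 of the 47 at RNA genes and in 47 of all 176. It was found in 38 of the 129 thresholded regions outside the windows, a larger share than at RNA genes. Of the 15 thresholded regions at the 4 small classes, 1 had it, the region at T21B4.20. The shorter word TGACA, which lies within TGACAG, was found at 51.5% of the regions at snoRNA genes and 40.8% of all members, against 39.9% of all nuclear regions.

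Among the other words searched on both strands, GATAA, a core for GATA factors, was found at 43.3% of members and 46.9% of all nuclear regions. CACGTG, an E-box, was found at 5.24 and 6.01%. GAGAGAG was found at 72 of the 649 members and 7.29% of all nuclear regions, and at 12.1% of the regions at ncRNA genes. GACAGT, which is TGACAG written backwards and served as a control, was found at 8.32 and 7.29%, with 15.2% at snoRNA genes and 14.3% at miRNA genes. TTTCAGA, the other control, was found at 8.63 and 12.4%. The control words thus moved between classes by as much as TGACAG did.

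In every class except tRNA genes, upstream of the gene was a more frequent place for the summit than inside or downstream of it. At snRNA genes, 13 of 23 summits lay upstream of the gene, 5 inside and 5 downstream, and 17 lay inside or within 100 bp. At miRNA genes, 16 of 28 lay upstream, 3 inside and 9 downstream, and 8 lay inside or within 100 bp. At snoRNA genes, 33 of 66 lay upstream, 15 inside and 18 downstream. At tRNA genes, 34 of 82 lay upstream, 7 inside and 41 downstream. At ncRNA genes, 220 of 555 lay upstream, 137 inside and 198 downstream. Of the 17 thresholded regions counted over the 4 small classes, which are 15 separate regions, 12 had the summit upstream, 1 inside and 4 downstream. Overlapping neighbours were counted separately here, so that sls-2.1 had 1 summit counted upstream and another downstream.

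**Figure D4:**
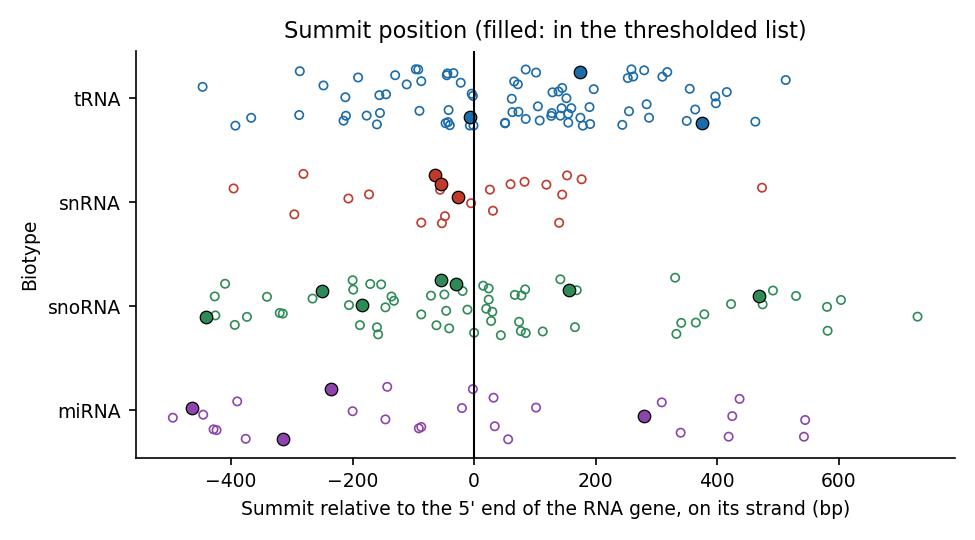
Position of each summit relative to the 5′ end of the nearest gene of its class (horizontal, bp along the gene's strand, negative values upstream) for the 4 small classes, with filled symbols for regions in the thresholded list and the vertical spread of points for display only. The 3 filled snRNA symbols lie from 65 to 27 bp before the gene, and the tRNA summits lie on both sides, 34 upstream and 41 downstream of the gene.

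The SL2 RNA genes held most of the signal seen at snRNA genes. Of 18 sls-2 genes, 9 had a region, and 12 regions lay at them, of which 2 were thresholded and 3 had a q of 0.05 or less. None of the 12 sls-1 genes, which encode the SL1 RNA, had a region. The sls-1 copies are near identical and stand in a repeated array, and whether reads could be placed there was not tested. Of the 10 smy genes, which encode SmY RNAs, found with trans-splicing factors, 1 had a region. Among the other 89 snRNA genes, which include those of the spliceosome, 7 had one.

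The region at sls-2.1 was the strongest at any snRNA gene. It spanned chrII:5844630-5845045, ranked 16 of the nuclear regions with a signal of 43.6, and had its summit 27 bp before the gene. Replicate 1 placed it at rank 20 with a signal of 18.5 and replicate 2 at rank 24 with 24.2, so that both placed it near the top of their lists. A further pooled region with its summit 68 bp downstream of the gene ranked 358, and it shares bases with the same replicate regions. The rank 16 summit lay 939 bp before the start of H41C03.3, in whose promoter it was counted.

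The region at sls-2.4 ranked 109 with a signal of 23.5, and its summit lay 55 bp before the gene and 562 bp before the start of egg-5. It ranked 38 in replicate 2 with a signal of 21.3 and shared no base with any region of replicate 1, the 1 thresholded member for which this was so. At sls-2.2 the region ranked 218, with a signal of 19.4 and its summit 56 bp before the gene, and it ranked 116 in replicate 1 and 2016 in replicate 2. At sls-2.3 it ranked 486 with a signal of 14.5 and a q of 0.119, and it ranked 421 and 487 in the replicates. The replicates thus gave sls-2.1 and sls-2.3 similar ranks, and sls-2.2 and sls-2.4 quite different ones. The regions at sls-2.16, sls-2.7, sls-2.9, sls-2.8 and sls-2.6 ranked from 622 to 4207, and the other 9 genes of the family had none.

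The 4 sls-2 genes with the highest ranks shared the upstream run printed above. The 15-base run from 65 to 51 bp before the gene was present within the 80 bases before 4 of the 18 sls-2 genes, and these were sls-2.1, sls-2.2, sls-2.3 and sls-2.4. It was absent from those bases of every sls-1, smy and other snRNA gene and from the 80 bases before all 19973 protein-coding genes. A given run of 15 bases is rare in windows of this size, so its absence there does not show that it is specific. Of the 14 sls-2 genes without it, 5 had a region. The run was defined from sls-2.1, sls-2.2 and sls-2.3 after their ranks were seen, so the match between run and rank is a description. The same 4 genes also shared the 22-base leader. Over the whole gene of 110 bases, sls-2.2 and sls-2.3 were identical at 107, and each was identical to sls-2.1 at 102, while the 80 bases before the gene were identical at 76.3 to 85.0%. Copies this alike can exchange reads, so the division of signal between them is uncertain.

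The third thresholded region at an snRNA gene lay on chromosome IV at WBGene00014366, with its summit 65 bp before the gene. It ranked 92 with a signal of 25.1, and ranked 32 in replicate 1 and 366 in replicate 2. It also lay 537 bp before the start of F38E11.9, and 62 bp beyond the ncRNA gene F38E11.24 on the opposite strand. The gene sequence occurs 2 times in the annotation. All 3 thresholded regions at snRNA genes therefore lay in a protein-coding promoter as well, and none of the 8 regions at snRNA genes outside promoters was thresholded. The next region by signal that lay at no sls gene had its summit inside sup-6, annotated as an snRNA gene, and ranked 288 with a signal of 17.4, with ranks of 42 in replicate 1 and 6695 in replicate 2.

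At snoRNA genes, whose products guide chemical modification of rRNA and snRNA, the strongest region of the whole nuclear list was found. It spanned chrII:12518824-12519239 with a signal of 103 and lay 54 bp before T21B4.20. Its signal was 39.2 in replicate 1, at rank 2, and 63.2 in replicate 2, at rank 1. The summit also lay 236 bp before mir-77 and 173 bp before the start of the chemoreceptor-like gene srh-70, and the Meis-class core shown above lay beside it. The rule therefore placed the same region under snoRNA and miRNA genes and in a protein-coding promoter.

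The region of rank 35 (chrX:11791656-11792071, signal 33.2) lay outside any promoter, 251 bp before the snoRNA gene C34E11.20, 465 bp before mir-239.2 and 119 bp before the ncRNA gene C34E11.9. Its rank was 179 in replicate 1 and 40 in replicate 2. The other 5 thresholded regions at snoRNA genes ranked from 88 to 140, with signals from 22.1 to 25.5, and lay at F17C11.24, K02F3.15, Y53F4B.47, M7.15 and C06A1.9. All 5 lay in a promoter. The promoters were those of F17C11.26, of zip-2, which encodes a bZIP factor of pathogen responses, of cmtr-1, named for a cap methyltransferase, of let-70, which encodes a ubiquitin-conjugating enzyme, and of cdc-48.1, which encodes an AAA ATPase.

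Their agreement between replicates was moderate. F17C11.24, whose region had its summit inside the gene, ranked 260 and 94 in the replicates, and Y53F4B.47, with its summit 30 bp before the gene, ranked 60 and 192. K02F3.15 ranked 325 and 104, M7.15 ranked 145 and 199, and C06A1.9 ranked 216 and 443. Of the 7 regions, the one at T21B4.20 was the single case that was among the 176 highest in both replicates. Outside protein-coding promoters, 1 of 37 regions at snoRNA genes was thresholded, the one at C34E11.20, which is 2.70%, against 3.68% of all nuclear regions there. The next region by signal, at rank 185 with a signal of 20.2, lay 341 bp before C04A2.16 in the promoter of egl-27, an MTA-family gene, and carried TGACAG.

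At miRNA genes, both groups with a shared seed held a thresholded region. Around the mir-54, mir-55 and mir-56 cluster, which lies within the annotated span of F09A5.3 on X, 2 regions were thresholded. The region spanning chrX:13145201-13145616 ranked 108 with a signal of 23.7 and had its summit 315 bp before mir-54, and the region spanning chrX:13144300-13144715 ranked 162 with a signal of 21.0 and had its summit 183 bp beyond mir-56. The former ranked 136 in replicate 1 and 404 in replicate 2, and the latter 939 and 66, so that each replicate favoured a different side of the cluster. A weaker region of rank 644 had its summit inside mir-56 and overlapped the same replicate regions as that of rank 162. Worm miRNAs with this seed form the mir-51 family, whose joint loss is known to be lethal. A region at another member, mir-52 on chromosome IV, ranked 363 with a signal of 16.1 and a q of 0.0613, and had its summit 446 bp before the gene, with ranks of 73 and 548 in the replicates.

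The group with the seed UUGUACU was represented by the region of rank 35 at mir-239.2 (mir-239b), by 2 regions at mir-239.1 (mir-239a) and by 1 at mir-238. The regions at mir-239.1 ranked 581 and 587 with signals of 13.8 each, the former overlapping the replicate regions that also matched rank 35, and the region at mir-238 ranked 863. Their q-values were 0.155, 0.156 and 0.259, while that of rank 35 was at the lowest value of the list. Of the 4 thresholded regions at miRNA genes, the one at T21B4.20 and mir-77 lay in a promoter, and the 4 summits were 183 to 465 bp from the miRNA gene. None of the 8 regions with a summit inside a miRNA gene or within 100 bp of it was thresholded. The stronger region at mir-80, a member of the bantam-related family, ranked 770 and was found at ranks 338 and 17674 in the replicates. A further region at mir-80 ranked 1137 and had no match in replicate 1.

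The developmental miRNA genes best known in worms were not among the members. Of 21 RNA genes looked up whatever their value, 2 had a region in the pooled list, and both were long non-coding RNA genes. Over all genes of the 5 biotypes, 892 of 9112 (9.79%) had a region, and 28 of 261 miRNA genes (10.7%) did. The count among the genes looked up is therefore near the general share, and so few genes cannot show that a group lacks regions. lin-4 and let-7, the founding heterochronic miRNAs, had none, nor had the let-7 relatives mir-48, mir-84 and mir-241, the neuronal lsy-6, the embryonic mir-35 to mir-42, the muscle miRNA mir-1 or mir-71, which acts in lifespan. In the lists of single replicates, regions lay at let-7, at ranks 5015 and 12793, at lin-4 at rank 10543 of replicate 2, at mir-1 at rank 2561 of replicate 2 and at mir-71 at rank 5017 of replicate 1. The lowest q among these was 0.233. The RNase P RNA gene rpr-1 had a region at rank 8512 of replicate 1, and the RNase MRP RNA gene mrpr-1 and the Y RNA gene yrn-1 had none in any list. With unknown depth, a gene without a region says only that no region was called within 500 bp of it.

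At tRNA genes the thresholded regions made up 2 loci, both on X. The regions of rank 18 (signal 42.1) and rank 80 (signal 26.2) overlapped each other and had their summits 303 and 102 bp downstream of C18A11.t2, a tRNA-Arg gene whose sequence occurs 10 times in the annotation. Both matched the same replicate regions, with a signal of 11.9 at rank 83 in replicate 1 and 32.3 at rank 6 in replicate 2. The third, at rank 173 with a signal of 20.7, had its summit 7 bp before R11.t1, and ranked 231 and 188 in the replicates with signals of 8.85 and 12.9. It spanned chrX:16209651-16210066. The R11.t1 gene sequence occurs 6 times.

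The next regions by signal also lay on X. That at F41D9.t3, a tRNA-Asn gene within the span of sulp-3, ranked 234 with a signal of 18.9 and its summit 22 bp before the gene, and ranked 293 and 380 in the replicates. That at F01G12.t1, a tRNA-Glu gene within sur-7, ranked 240 with a signal of 18.8, and ranked 109 in replicate 1 and 3476 in replicate 2. The latter replicates differ widely. By isotype of the nearest gene, 8 of the 82 regions lay at tRNA-Arg genes, 7 at tRNA-Pro, 6 at tRNA-Lys and 6 at tRNA-Val genes, and 19 of the 21 isotypes listed had at least 1 region. No isotype stood far from the others in number.

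Identical gene copies limit what can be read from the tRNA regions. Of 612 tRNA genes, 469 (76.6%) shared their sequence with another annotated gene, as did the nearest gene of 73 of the 82 regions. When tRNA genes with an identical copy were left out, 10 regions remained and none was thresholded. With 3.65% of all nuclear regions thresholded, so few regions cannot show a difference. The same limit touches the snRNA genes, of which 44 of 129 (34.1%) shared their sequence with another gene. In the other classes, 6 of 261 miRNA genes, 78 of 7764 ncRNA genes and no snoRNA gene did. The B box word GTTCGANTC was found on 1 or the other strand near the summit, within the same 100 bp, in 18.3% of the regions at tRNA genes and 0.766% of all nuclear regions. This follows from where the genes are, since the word lies inside tRNA genes. It was found at 14 of the 40 regions inside or within 100 bp of the gene and at 1 of the 42 farther away (2.38%), and it occurred in 286 of the 612 tRNA genes (46.7%).

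The class ncRNA gave most of the members, and most of its genes are short transcripts known by a sequence name alone. Of the 555 regions at them, 455 were at no gene of the other 4 classes. The strongest lay on chromosome I, 103 bp before W08E3.5, at rank 2 with a signal of 85.5, and ranked 1 in replicate 1 with 39.4 and 3 in replicate 2 with 48.0. The next, spanning chrV:7744067-7744482 at rank 3 with a signal of 80.9, had its summit inside T05B11.10, which lies within the annotated span of fbxl-5, and ranked 4 and 2 in the replicates with signals of 27.0 and 53.4. Both carried TGACAG and lay outside promoters. The other thresholded regions with TGACAG and without a promoter were those at T05A6.14 (rank 34), H36N01.2 (rank 82) and Y56A3A.38 (rank 95). H36N01.2 lies within daf-16, the FOXO factor of insulin signalling.

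Of the 39 thresholded regions at ncRNA genes, 18 lay in a protein-coding promoter, 7 lay outside promoters at an ncRNA gene within the span of a protein-coding gene, and 14 lay at neither. The 14 had signals from 23.2 to 85.5, and besides W08E3.5, T05A6.14 and Y56A3A.38 they were both regions at C18A11.13, which overlaps the tRNA gene C18A11.t2, and those at C34E11.9, K03H9.8, T14G8.5, W04D12.2, ZK792.10, tts-1, C30E1.9, F28A12.9 and F35G2.20. The 7 ranked from 3 to 161 and lay at T05B11.10 in fbxl-5, K03C7.14 in fkh-9, H36N01.2 in daf-16, F09A5.11 in F09A5.3, F16A11.13 and F16A11.7 in ppfr-1, and F48C1.13 in let-526. fkh-9 encodes a forkhead factor, ppfr-1 a regulatory subunit of a protein phosphatase, and let-526 a subunit of SWI/SNF chromatin remodelling complexes. By position, 20 of the 39 had the summit upstream of the ncRNA gene, 10 inside it and 9 downstream.

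The 18 promoter regions ranked from 29 to 176, with signals from 20.6 to 34.8. The strongest of these lay 59 bp before F52D10.7 and 629 bp before the start of ftt-2, a 14-3-3 gene, at rank 29, with ranks of 93 and 50 in the replicates. Next came F40F9.14 at drap-1 (rank 46, replicates 11 and 173) and F42D1.13 at tatn-1, which encodes tyrosine aminotransferase (rank 58, replicates 245 and 48). The others lay at D1054.23 (D1054.18), C42D4.17 (srlf-7), F17C11.21 (F17C11.26), F38E11.24 (F38E11.9), W06B11.7 (puf-9), R12E2.18 (egg-5), F26D10.23 (hsp-1), ZK546.20 (aagr-2), F26F4.14 (tag-340), C16C2.7 (eat-16), R02E12.9 (hrg-1), M03F4.12 (calu-1), C14F11.14 (T13C5.6), F45B8.9 (mrp-5) and C34F11.18 (crh-2), with the promoter's gene in parentheses. Among them puf-9 encodes a Pumilio-family RNA-binding protein, hsp-1 a constitutive HSP70, hrg-1 a haem transporter and crh-2 a CREB-related bZIP factor. R02E12.9, M03F4.12 and ZK546.20 carried TGACAG.

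Replicate support varied widely within this class. Of the 39 regions, 12 were among the 176 highest in both replicates, 20 in replicate 1 and 28 in replicate 2. The region at T14G8.5 ranked 56 in the pool and 22 in replicate 2 but 3445 in replicate 1, that at R02E12.9 ranked 96 in replicate 2 and 2790 in replicate 1, and those at F45B8.9 and C34F11.18 ranked 70 and 459 in replicate 1 and 2448 and 2652 in replicate 2. For these 4, the strength in the pool rests on a single replicate or on neither.

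The long non-coding RNA genes among those looked up differed in replicate support. tts-1, an abundant RNA of long-lived insulin-receptor mutants, had a region spanning chrX:1503820-1504235 with its summit 103 bp beyond the 3′ end of the gene. It ranked 104 with a signal of 24.4, and overlapped regions of rank 51 in replicate 1 and rank 53 in replicate 2, with signals of 13.8 and 19.2. A weaker region of rank 407, with a signal of 15.5, had its summit inside tts-1 and matched ranks 51 and 576 in the replicates. On the 5′ side of tts-1, a region of rank 284 with a signal of 17.6 had its summit inside the ncRNA gene F09E10.14. The replicates differed widely there, with rank 44 in replicate 1 and rank 2418 in replicate 2. rncs-1, an intestinal RNA that responds to starvation, had a region at rank 843 with a signal of 12.3 and a q of 0.255, and overlapped regions of rank 6868 in replicate 1, with a signal of 3.31 and a q of 0.341, and rank 939 in replicate 2. Another replicate 1 region, of rank 209, had its summit within 500 bp of rncs-1 but shared no base with the pooled region. C30E1.9, an ncRNA gene of 14770 bp on X, had a thresholded region 110 bp before its start at rank 107, with ranks of 25 and 103 in the replicates. The regions of rank 104 at tts-1 and rank 107 at C30E1.9 were thus among those ranked high in both replicates.

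The number of members depends on the limit of 500 bp, with 329 regions within 100 bp and 927 within 1000 bp. The members just inside it lay 447 bp from a tRNA gene (F58D5.t1, signal 11.5), 396 bp from an snRNA gene (M163.13, 8.67), 490 bp from a snoRNA gene (D2023.18, 10.6), 496 bp from a miRNA gene (mir-34, 12.2) and 497 bp from an ncRNA gene (W01H2.4, 7.67). Those just outside lay at 529 bp (C36F7.t2, 8.44), 553 bp (F54D8.7, 8.12), 501 bp (C34E11.20, 13.8), 502 bp (mir-56, 8.55) and 501 bp (F13A7.15, 8.94). None of the 10 had a q of 0.05 or less. Their signals, from 7.67 to 13.8, lay on both sides of the median of all nuclear regions, 9.18.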

How the data were processed

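UNC-62 ChIP-seq of 2 biological replicates was analysed from the peak lists that the authors deposited for build ce11. Each deposited list gives, per region, a summit, a signal value, whose scale the sources do not define, and the −log10 of a q-value. Per the file headers of the accompanying texts, a list was made for each replicate and for both replicates pooled, each with a control, and a thresholded list came from the irreproducible discovery rate step. The aligner, peak caller and versions were not given in the sources used here. Lists for ce10 were not used. These lists hold no read counts, so depth is unknown.

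Regions were joined to genes of Ensembl release 115 (WBcel235), with tRNA names and isotypes and mature miRNAs from the RefSeq annotation of the same assembly. RefSeq gave names for 610 of 612 tRNA genes and 22 ncRNA genes. Some genes carry different names in the sources, and WBGene00014366 is given by its identifier. Ranks are among nuclear regions. A replicate's value is that of its highest region sharing at least 1 bp with the pooled region, so adjacent pooled regions can share it. Upstream and downstream refer to the strand of the RNA gene. Words were searched on both strands within 100 bp of the summit, and 8 words were searched. No test was made: the single group allows no comparison of conditions, and members are described beside all nuclear regions.

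Named regions are all thresholded members, the 5 strongest of each biotype, and a list of 21 RNA genes and the sls families named whatever their value. mir-34, mir-238 and mir-239.1 were added for the edge of the rule and the shared seeds, and mir-80 as the next miRNA gene by signal, after their values were seen. Where a looked-up gene had no pooled region, replicate regions are those with a summit within 500 bp of it. The members, lists and words were chosen with earlier results of these data known. Calculations used Python 3.11.15, numpy 2.4.6 and pandas 2.3.3, and the joins were checked on simulated data. Other distances, thresholds, promoter windows and replicate lists were tried.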

Additional observations from a re-analysis of the deposited data

How the results depend on the processing

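No paired analysis was possible because there was a single group. The thresholded share of members (7.24%) kept its place above that of all nuclear regions under all 8 alternatives run. Of 46 alternatives to the results over all members, 25 moved the value little and 21 moved it, and by biotype 138 of 225 moved it little; where a value moved and no cause is given by its construction, the cause was not tested. Members numbered 329 within 100 bp, 927 within 1000 bp, 159 inside the gene and 358 outside promoters. The share with a q of 0.05 or less went from 12.2% to 0% at 0.01 (no nuclear region passed), 16.2% at 0.10 (9.24% of all nuclear regions) and 9.78% outside promoters (6.35% of all there). Over the whole unthresholded list of the other replicate it was 6.24% of 2019 members without replicate 1 (2.83% of all) and 14.1% of 1846 members without replicate 2 (8.40% of all). The ratio of median signals, members over all, was 1.09, and 1.15 within 100 bp, 1.12 inside the gene and 1.10 outside promoters, and from 1.07 to 1.08 without a replicate. The share found in both replicates was 38.5% where summits had to lie within 100 bp (34.2% of all), 71.4% for members within 100 bp of the gene and 96.2% for a q of 0.05 or less (96.7% of all). The share highly ranked in both was 13.4% with the 1000 highest regions (6.94% of all). TGACAG was found in 5.08% within 50 bp of the summit, 14.8% within 200 bp and 6.38% of members within 100 bp of the gene. Without replicate 2 it was found in 9.43%, above the 9.03% of all nuclear regions, so its order beside them turned. Summits inside the gene made up 24.5%, and from 20.3 to 24.9% without a replicate. Promoters of 500 bp held 22.3% of members (22.2% of all), and those used here from 41.3 to 43.3% without a replicate. The merged, promoter-free and ncRNA-free counts were added after the data were seen.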
